A study of Mus musculus with 6 samples.

Results

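The TGF-beta ligands, receptors and Smads, a set of 10 genes, were described in 6 RNA sequencing libraries of mouse samples whose labels name lung. The genes were taken by symbol from a table of 54532 genes, in which each had 1 row. They are the ligand genes Tgfb1, Tgfb2 and Tgfb3, the latency gene Ltbp1, the receptor genes Tgfbr1, Tgfbr2 and Tgfbr3, and the signal transducer genes Smad2, Smad3 and Smad7. The labels and design text place 3 libraries in an aged group, from mice of 18 months, and 3 in a young group, from mice of 3 months, with no treatment, genotype, strain or sex stated. The comparison addresses how transcript levels differ between these groups, and age cannot be told apart from any other difference between them. Separate mice for the 3 libraries of a group are not stated, so p-values measure only the library-to-library spread, and this may be technical.

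TGF-beta ligands are secreted inside a latency complex, tied to the matrix through latent TGF-beta binding proteins, and act once they are released from it. A released dimer is bound by the type II receptor, which recruits and phosphorylates the type I receptor, and that kinase phosphorylates Smad2 and Smad3. These enter the nucleus with Smad4 and change transcription, and among the genes they induce is Smad7, which blocks the type I receptor. In the lung the pathway is known for its part in alveolar development, wound repair and fibrosis.

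The contents of the libraries went against the tissue label. Surfactant gene Sftpc, made by type 2 cells of the alveolus, reached at most 0.112 FPKM (fragments scaled by gene length and by library size), endothelial Pecam1 at most 0.322 FPKM and leukocyte Ptprc at most 0.0953 FPKM, while mesenchymal Vim lay between 478 and 506 FPKM in all 6 libraries. The groups are therefore called labelled aged and labelled young. Whole reads recovered from the values totalled between 16649061 and 16906850 per library labelled aged, against between 17266815 and 17456715 per library labelled young. Kidney tubule transcripts were found in 2 libraries labelled young: Kap, an abundant kidney transcript, was at 116 FPKM in replicate 1 and 21.9 FPKM in replicate 3, and had no read in the other 4 libraries. The kidney markers Umod, Slc34a1 and Miox were also highest in these 2 libraries, at 4.90, 4.72 and 4.26 FPKM in replicate 1. Slc12a1 was highest in replicate 1, at 1.37 FPKM. Its 0.241 FPKM in replicate 3 lay below the 0.464 to 0.727 FPKM of the libraries labelled aged. Dependence on the 2 libraries with kidney transcripts was looked at for the tested genes of the set. It was also looked at for the lists of other pathway genes and the genes named from them by smallest p. Other genes given with a difference, such as Smad4, Eng, Tgfbi and Pdgfrb, were not examined without these 2 libraries.

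Of the 10 genes, 7 differed between the groups at an adjusted p under 0.05. Smad7 was 2.79-fold higher in the libraries labelled aged, the largest difference of the set. Tgfb1 and Smad3 were slightly higher, by 1.15-fold and 1.09-fold. Tgfbr3 was 1.62-fold lower in the libraries labelled aged, and Tgfb3, Ltbp1 and Tgfbr1 were lower by smaller amounts. Tgfbr2 and Smad2 did not pass the threshold, and Tgfb2 was too low to be tested.

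These counts stand in a table in which most genes differed. By limma, 60.0% of all 15197 tested genes passed the threshold, 27.7% higher and 32.3% lower in the libraries labelled aged. Of the 9 tested members, 3 were higher and 4 lower, so 7 of 9 passed. After centring each library on its median, 3 members were higher and 2 lower, against 4988 and 4026 of all tested genes. The median absolute log2 fold change of the members was 0.18, against 0.28 over all tested genes, both on the log2(FPKM + 1) scale. The groups did not overlap in any of the 9, with 3 higher and 6 lower, as was the case for 66.9% of all tested genes, 31.3% higher and 35.6% lower. Leaving out the 2 libraries with kidney transcripts leaves 1 library labelled young that is assumed to vary like the others. Fewer members and fewer of all tested genes passed in that fit. Its log2 fold changes were -0.60 for Tgfbr3 and 1.19 for Smad7. In bulk RNA, fewer cells of a type and less RNA per cell cannot be told apart.

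Some marker levels moved with the groups. The 5 leukocyte markers summed to 16.4 to 17.9 FPKM in the libraries labelled aged, against 6.37 to 8.16 FPKM in those labelled young, nearly all of it Cd68, a lysosomal glycoprotein. The other 4, among them Ptprc and Cd3e, stayed under 1 FPKM in all 6 libraries. The 5 mesenchymal markers summed to 893 to 928 FPKM in libraries labelled aged, against 1086 to 1115 FPKM in those labelled young, and the lower sum was that of the collagen genes Col1a1 and Col1a2. Col1a1 had 153 to 184 FPKM in libraries labelled aged, against 236 to 251 FPKM in those labelled young, and Col1a2 had 215 to 229 FPKM in libraries labelled aged, against 331 to 339 FPKM in those labelled young. Pdgfrb was higher, at 22.13 to 24.01 FPKM in libraries labelled aged, against 21.04 to 22.09 FPKM in those labelled young, Vim did not pass the threshold, and Thy1 was at most 0.466 FPKM. Of the 5 alveolar markers 1 reached 1 FPKM, Hopx, and their sum was 6.54 to 6.93 FPKM in libraries labelled aged, against 10.7 to 10.9 FPKM in those labelled young. The part of these levels in the results was not tested.

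**Figure D1:**
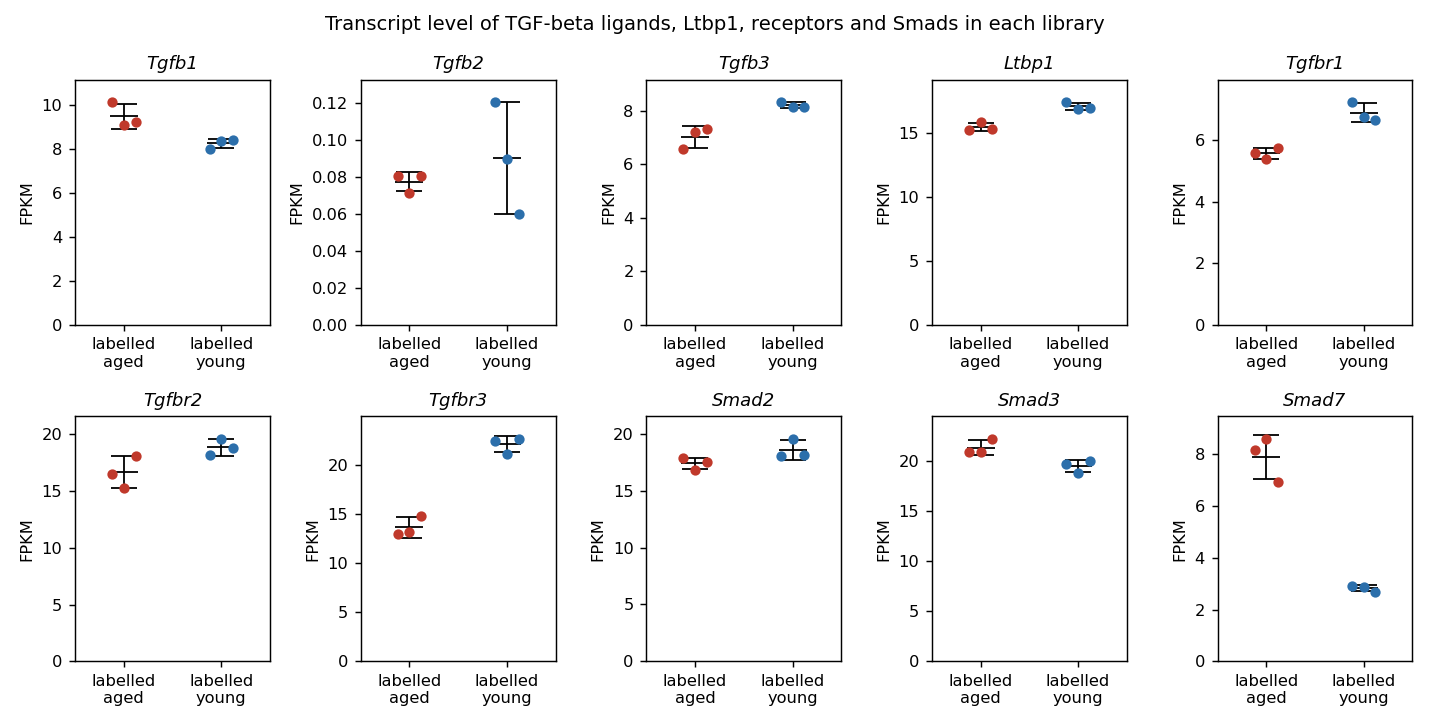
Transcript level in FPKM (vertical axes, each from 0) of the 10 genes in the 3 libraries labelled aged (red, left) and the 3 labelled young (blue, right), with the mean and SD in black. Smad7 lay between 6.95 and 8.61 FPKM in libraries labelled aged and between 2.69 and 2.93 FPKM in those labelled young, while Tgfb2 stayed at or below 0.12 FPKM in all 6.

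Levels scaled by length ordered the genes differently in the 2 groups. In the libraries labelled aged, Smad3 was highest with a mean of 21.3 FPKM, and its range did not overlap that of Smad2, the next in order. Smad2, Tgfbr2 and Ltbp1 followed with ranges that overlapped between neighbours. Below them came Tgfbr3 and Tgfb1, which stood apart, then Smad7 and Tgfb3, which overlapped each other, and Tgfbr1. In the libraries labelled young, Tgfbr3 was highest with a mean of 22.1 FPKM, followed by Smad3, Tgfbr2 and Smad2, which overlapped as neighbours, and then by Ltbp1. Tgfb1 and Tgfb3 overlapped there, Tgfbr1 lay below them, and Smad7 stood next to last. Tgfb2 was last in both groups.

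The ligand transcripts were almost all Tgfb1 and Tgfb3, which moved in opposite directions. Tgfb1 encodes the most widely expressed isoform (chromosome 7, 25687002 to 25705077, plus strand, mm10). It had 10.1, 9.06 and 9.21 FPKM in the libraries labelled aged and 7.99, 8.33 and 8.40 FPKM in those labelled young. All 3 libraries labelled aged lay above the 3 labelled young, with replicate 1 highest. Tgfb1 had a log2 fold change of 0.18 ± 0.05 (SE) with a limma adjusted p of 0.0204. The call was lost without that library (adjusted p = 0.0512) and without replicate 1 labelled young (adjusted p = 0.0631), and adjusted p was 0.177 without both libraries with kidney transcripts.

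Tgfb3, an isoform known from palate and lung development (chromosome 12, 86056745 to 86079041, minus strand), was lower. Its level was 6.57, 7.20 and 7.33 FPKM in the libraries labelled aged and 8.33, 8.14 and 8.15 FPKM in those labelled young. The groups did not overlap, and the libraries labelled young lay closer together. The difference came to a log2 fold change of -0.20 ± 0.05 (SE, limma adjusted p = 0.0114), with adjusted p = 0.0529 after centring each library on its median and 0.139 without both libraries with kidney transcripts. Ttll5 on the opposite strand overlaps Tgfb3 and stood at 2.58 to 2.80 FPKM, and no source used here says whether reads were counted by strand.

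Tgfb2 (chromosome 1, 186622792 to 186705989, minus strand) was near the limit of detection. It had 8, 7 and 8 reads in the libraries labelled aged and 12, 9 and 6 reads in those labelled young, and reached at most 0.0804 FPKM in libraries labelled aged and 0.120 FPKM in those labelled young. The groups overlapped. The ratio of reads per library size was 0.860, with an exact 95% interval of 0.471 to 1.56 that covers counting error only. At this depth a difference within that interval could not be told from none.

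The summed level of the 3 ligands was close in the groups, at 16.3 to 16.8 FPKM in the libraries labelled aged, against 16.4 to 16.6 FPKM in those labelled young. Tgfb1 made up 55.4% to 60.3% of this sum in the libraries labelled aged, against 48.6% to 50.6% in those labelled young. The remainder was nearly all Tgfb3, at 39.2% to 44.1% in libraries labelled aged, against 49.1% to 50.6% in those labelled young.

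The stretches before the annotated starts of an expressed and a nearly unexpressed ligand gene are shown for their difference in composition. Each line gives the 250 bases before the start from RefSeq (GRCm38.p6), 5′ to 3′ on the gene's strand. Capitals mark GGGCGG, the core of the GC box bound by Sp1-type factors, and CAGAC, the core of Smad-binding elements, on either strand. The windows are chr7:25686752-25687001 on the plus strand for Tgfb1 and chr1:186705990-186706239 on the minus strand for Tgfb2.
Tgfb1: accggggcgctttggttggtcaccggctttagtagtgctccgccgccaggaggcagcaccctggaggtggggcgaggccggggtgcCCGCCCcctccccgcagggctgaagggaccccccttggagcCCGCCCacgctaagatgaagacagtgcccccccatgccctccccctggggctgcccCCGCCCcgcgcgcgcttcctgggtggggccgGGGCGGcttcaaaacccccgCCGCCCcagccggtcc
Tgfb2: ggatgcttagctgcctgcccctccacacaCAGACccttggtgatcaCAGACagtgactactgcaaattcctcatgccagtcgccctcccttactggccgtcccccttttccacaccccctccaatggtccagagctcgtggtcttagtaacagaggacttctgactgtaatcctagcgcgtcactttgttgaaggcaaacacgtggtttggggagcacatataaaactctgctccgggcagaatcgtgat
The Tgfb1 window held 5 GGGCGG matches and no CAGAC match, and 75.2% of its bases were G or C. The Tgfb2 window held no GGGCGG match and 2 CAGAC matches, with 53.6% G or C. The 2 windows of Ltbp1, a gene expressed at 15.2 to 17.4 FPKM, also held no GGGCGG match. They held 1 and 2 CAGAC matches, with 56.8% and 50.8% G or C. Of 32851 such windows, 32.7% held at least 1 GGGCGG and 42.2% at least 1 CAGAC, so neither motif is rare. A match describes these letters and shows no binding. RefSeq windows were found for 6 of the 10 genes.

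Ltbp1 encodes latent TGF-beta binding protein 1, which holds the latent ligand in the extracellular matrix (chromosome 17, 75005568 to 75392512, plus strand). It had 15.2, 15.8 and 15.3 FPKM in the libraries labelled aged and 17.4, 16.8 and 16.9 FPKM in those labelled young. The groups did not overlap, although the difference was small. Ltbp1 had a log2 fold change of -0.13 ± 0.03 (SE, limma adjusted p = 0.0122), and the call was lost with median centring (adjusted p = 0.127) and without both libraries with kidney transcripts (adjusted p = 0.154).

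The receptor genes Tgfbr3 and Tgfbr1 fell in the libraries labelled aged, and Tgfbr3 fell most. Tgfbr3 encodes betaglycan, a coreceptor that presents TGF-beta to the type II receptor and is needed most for the TGF-beta 2 ligand (chromosome 5, 107106570 to 107289629, minus strand). Its level was 12.9, 13.1 and 14.8 FPKM in the libraries labelled aged and 22.4, 21.1 and 22.6 FPKM in those labelled young. The highest library labelled aged lay well below the lowest labelled young. The log2 fold change was -0.66 ± 0.06 (SE, limma adjusted p = 0.000110), and the gene passed the threshold under all 18 alternatives, with log2 fold changes of -0.72 to -0.59.

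Tgfbr1 encodes the type I receptor kinase, also called ALK5 (chromosome 4, 47353222 to 47414931, plus strand). It had 5.58, 5.40 and 5.76 FPKM in the libraries labelled aged and 7.25, 6.78 and 6.68 FPKM in those labelled young. Again the groups did not overlap. Tgfbr1 had a log2 fold change of -0.26 ± 0.05 (SE, limma adjusted p = 0.00312), and adjusted p was 0.0547 without both libraries with kidney transcripts.

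Tgfbr2 encodes the type II receptor that binds the ligand (chromosome 9, 116084293 to 116175360, minus strand). Its level was 16.5, 15.3 and 18.1 FPKM in the libraries labelled aged and 18.1, 19.6 and 18.7 FPKM in those labelled young. Replicate 3 labelled aged came close to the lowest library labelled young. The log2 fold change of -0.17 ± 0.06 (SE) did not pass the threshold (limma adjusted p = 0.0520). The adjusted p was 0.0115 without that library and 0.00687 when limma's voom was run on recovered reads.

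The levels of the 3 receptor genes summed to 33.8 to 38.7 FPKM in the libraries labelled aged, against 47.5 to 48.0 FPKM in those labelled young. Tgfbr3 made up 36.9% to 38.9% of the sum in libraries labelled aged, against 44.5% to 47.1% in those labelled young. The ratio of the Tgfbr3 level to the Tgfbr2 level was 0.783 to 0.860 in libraries labelled aged, against 1.08 to 1.24 in those labelled young.

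The genes of the type I and type II receptors, which form the signalling complex together, are shown at 1 annotated start each. The lines show 250 bases each in the same manner, from chr4:47352972-47353221 on the plus strand for Tgfbr1 and chr9:116175364-116175613 on the minus strand for Tgfbr2.
Tgfbr1: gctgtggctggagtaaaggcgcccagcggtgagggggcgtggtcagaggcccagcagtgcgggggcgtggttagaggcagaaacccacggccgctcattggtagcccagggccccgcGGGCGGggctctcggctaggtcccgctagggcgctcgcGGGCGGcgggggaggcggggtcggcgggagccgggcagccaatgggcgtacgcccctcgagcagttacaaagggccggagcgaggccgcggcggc
Tgfbr2: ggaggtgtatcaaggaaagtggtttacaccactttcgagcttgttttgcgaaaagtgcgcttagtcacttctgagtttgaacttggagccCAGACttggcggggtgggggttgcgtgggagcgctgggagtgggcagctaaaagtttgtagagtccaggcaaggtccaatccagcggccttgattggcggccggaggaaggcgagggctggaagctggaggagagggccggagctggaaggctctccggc
The Tgfbr1 window held 2 GGGCGG matches and no CAGAC, with 74.8% G or C. A second annotated Tgfbr1 start, at whose window (chr4:47385966-47386215) no GGGCGG and 1 CAGAC were found, had 52.8% G or C. The Tgfbr2 window held 1 CAGAC and no GGGCGG, with 58.4% G or C, so the composition of the Tgfbr1 windows differed by start and the second was like that of Tgfbr2 in motif counts.

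Among the Smads, the inhibitory Smad7 rose, Smad3 was slightly higher and Smad2 did not pass the threshold. Smad7, the feedback inhibitor that blocks and helps degrade the type I receptor (chromosome 18, 75367529 to 75395935, plus strand), had 8.16, 8.61 and 6.95 FPKM in the libraries labelled aged and 2.93, 2.88 and 2.69 FPKM in those labelled young. Every library labelled aged was far above every one labelled young, and replicate 3 labelled aged was the lowest of its group. These levels rest on 1834 reads in the libraries labelled aged and 664 in those labelled young. The log2 fold change was 1.21 ± 0.08 (SE, limma adjusted p = 3.21e-05), and Smad7 passed the threshold under all 18 alternatives, with log2 fold changes of 1.15 to 1.47.

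Smad3, a receptor-activated Smad that binds DNA directly (chromosome 9, 63646767 to 63757994, minus strand), had 20.9, 20.9 and 22.2 FPKM in the libraries labelled aged and 19.7, 18.8 and 20.0 FPKM in those labelled young. The groups stood apart by less than 1 FPKM. The log2 fold change of 0.12 ± 0.04 (SE) passed the threshold (limma adjusted p = 0.0358) here and under 9 of 18 alternatives, with adjusted p up to 0.116. The call was lost without replicate 1, 2 or 3 labelled aged (adjusted p = 0.0544, 0.0566 and 0.0832), without replicate 1 or 2 labelled young (adjusted p = 0.0657 and 0.116) and without both libraries with kidney transcripts (adjusted p = 0.0836).

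Smad2, the other receptor-activated Smad (chromosome 18, 76241580 to 76305731, plus strand), had 17.8, 16.8 and 17.5 FPKM in the libraries labelled aged and 18.1, 19.6 and 18.1 FPKM in those labelled young. The groups did not overlap, but the gap between them was smaller than the spread within either. With a log2 fold change of -0.09 ± 0.04 (SE), Smad2 did not pass the threshold (limma adjusted p = 0.118), nor did it under any of the 18 alternatives. The GENCODE annotation ends Smad2 further on, at 76310963. The part of this in its level beside other genes was not tested.

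The level of Smad7 relative to Smad3 was 0.313 to 0.413 in the libraries labelled aged, against 0.135 to 0.153 in those labelled young. Smad2 and Smad3 together summed to 37.7 to 39.7 FPKM in libraries labelled aged, against 37.7 to 38.4 FPKM in those labelled young, ranges that overlapped. Within that sum Smad3 took 53.9% to 55.9% in libraries labelled aged, against 49.0% to 52.5% in those labelled young.

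**Figure D2:**
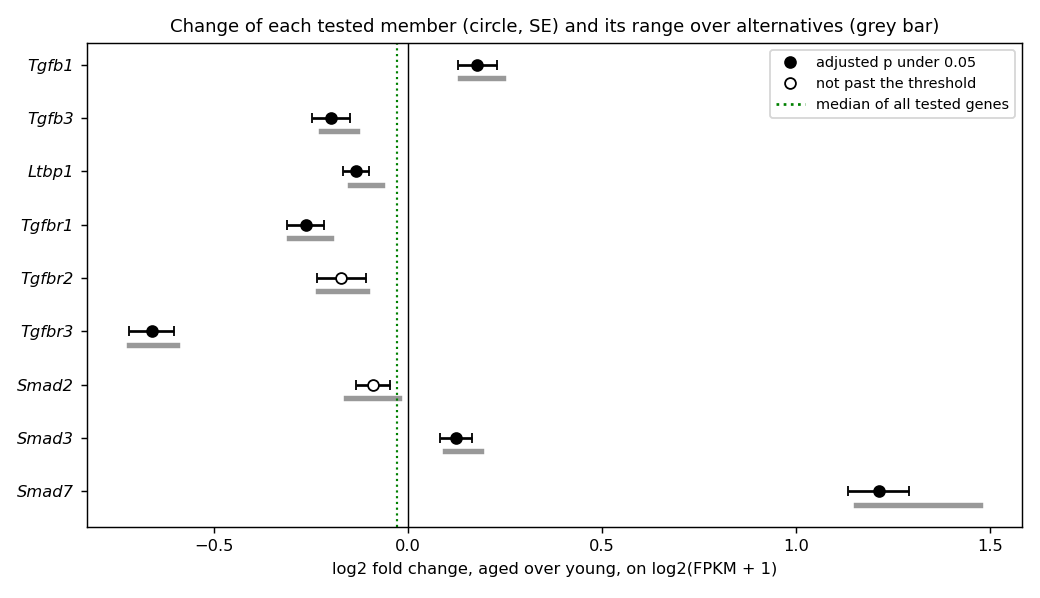
Log2 fold change of the libraries labelled aged over those labelled young on the log2(FPKM + 1) scale (horizontal axis) for the 9 tested genes, with circles for the limma estimate and its SE, filled where adjusted p was under 0.05. Grey bars span the 18 alternative analyses and the dotted line is the median of all tested genes, -0.03. Smad7 at 1.21 and Tgfbr3 at -0.66 lie farthest from 0, and no bar crosses 0.

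The genes that followed the Smad7 profile most closely, by Pearson's r of log2(FPKM + 1) over the 6 libraries, were Ppp1r10, Cpne2 and Ccl2, each at r above 0.99. Ccl2, a monocyte chemokine, averaged 286 FPKM in the libraries labelled aged and 111 FPKM in those labelled young. Of 15196 other tested genes, 369 reached an r of 0.99 with Smad7, and all of these r values share the split into the same 2 groups.

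The other genes of the pathway were gathered in 4 lists that leave out the 10 genes above. Of their 133 genes, 105 were tested, and 39 of these were higher and 44 lower in the libraries labelled aged, which is 37.1% and 41.9%, against 27.7% and 32.3% of all tested genes. The 4 genes of each list with the smallest p are named with their levels.

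The list of latency and activation holds further binding proteins, matrix partners, integrins and proteases that keep or release the ligand. Of its 30 genes, 22 were tested, and 12 were higher, 8 lower and 2 without a call, which is 54.5% higher and 36.4% lower, against 27.7% and 32.3% of all tested genes. Without both libraries with kidney transcripts, which leaves 1 library labelled young, fewer genes passed in this list and over all tested genes. Over its tested genes, the median log2 fold change was 0.12. Fbn1, the fibrillin to which latent complexes attach, rose 2.45-fold, at 54.0, 53.6 and 54.7 FPKM in the libraries labelled aged and 21.8, 22.8 and 21.5 FPKM in those labelled young. Lrrc32, which encodes GARP, a membrane anchor for latent TGF-beta 1, rose 1.99-fold, at 16.6 ± 0.673 FPKM in libraries labelled aged and 8.35 ± 0.399 FPKM in those labelled young (SD, n = 3 per group, also for the values that follow). Emilin1, a matrix protein that limits processing of the TGF-beta precursor, was 1.86-fold lower, at 19.8 ± 0.389 FPKM in libraries labelled aged and 36.9 ± 0.273 FPKM in those labelled young. Furin, the protease that cleaves the precursor, was 1.62-fold lower, at 11.1 ± 0.305 FPKM in libraries labelled aged and 17.9 ± 0.0924 FPKM in those labelled young. Limma adjusted p for these 4 genes ran from 1.89e-06 to 1.54e-05.

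In the list of other receptors, Smads and adaptors, more genes were lower than higher. Of its 28 genes, 24 were tested, and 1 was higher, 16 lower and 7 without a call. That is 4.17% higher and 66.7% lower, against 27.7% and 32.3% of all tested genes. With median centring 3 were higher and 12 lower, against 4988 and 4026 of all 15197 tested genes. The number lower was 11 without replicate 2 or without replicate 3 labelled young, where 4363 and 4401 of all tested genes were lower. Fewer genes passed, here and over all tested genes, without both libraries with kidney transcripts, which leaves 1 library labelled young. The median log2 fold change was -0.23, against -0.03 over all tested genes. Hgs, which was not tested, had more than 1 row. The row used held 7 reads in libraries labelled aged and 8 in those labelled young. No other row of Hgs was used, so these reads do not give the level of the gene. Nrp2, a neuropilin coreceptor, was 1.57-fold lower, at 27.7, 27.0 and 28.9 FPKM in the libraries labelled aged and 45.6, 42.4 and 43.5 FPKM in those labelled young. Acvr1b, the type I activin receptor, was 1.52-fold lower, at 11.3 ± 0.660 FPKM in libraries labelled aged and 17.2 ± 0.564 FPKM in those labelled young. Bmpr1a, a type I receptor of bone morphogenetic proteins, was 1.39-fold lower, at 8.60 ± 0.213 FPKM in libraries labelled aged and 11.98 ± 0.242 FPKM in those labelled young. Acvr2b, a type II activin receptor, was low in both groups, at 0.570 ± 0.114 FPKM in libraries labelled aged and 1.75 ± 0.240 FPKM in those labelled young. Limma adjusted p for these 4 genes ran from 3.28e-05 to 0.000544.

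Smad4, the partner shared by all receptor-activated Smads, and Eng, the coreceptor endoglin, were chosen from this list after their values were seen. Smad4 was lower, at 21.2, 21.5 and 22.4 FPKM in the libraries labelled aged and 24.8, 25.9 and 24.8 FPKM in those labelled young (log2 fold change -0.21 ± 0.04 SE, limma adjusted p = 0.00242). Eng had 78.2, 67.8 and 73.7 FPKM in the libraries labelled aged and 83.0, 82.4 and 81.0 FPKM in those labelled young (log2 fold change -0.17 ± 0.05 SE, limma adjusted p = 0.0309). In both genes the groups did not overlap, and neither was examined without both libraries with kidney transcripts.

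The list of regulators of receptors and Smads, which holds ubiquitin ligases, corepressors and phosphatases, was split. Of its 34 genes, 31 were tested, and 12 were higher, 10 lower and 9 without a call, which is 38.7% higher and 32.3% lower, against 27.7% and 32.3% of all tested genes. Fewer genes of this list, and fewer of all tested genes, passed without both libraries with kidney transcripts, which leaves 1 library labelled young. Over its tested genes, the median log2 fold change was 0.01. Ldlrad4, a membrane protein that keeps Smad2 and Smad3 from the receptor, rose 2.69-fold, at 12.1, 12.3 and 12.2 FPKM in the libraries labelled aged and 4.75, 4.55 and 4.32 FPKM in those labelled young. Skil, which encodes the Smad corepressor SnoN, rose 1.76-fold, at 7.81 ± 0.349 FPKM in libraries labelled aged and 4.44 ± 0.114 FPKM in those labelled young. Cav1, caveolin 1 of the membrane pits through which the receptors are taken up for degradation, rose 1.47-fold, at 226 ± 2.71 FPKM in libraries labelled aged and 154 ± 5.73 FPKM in those labelled young. Ncor1, a general nuclear corepressor, was 1.56-fold lower, at 13.0 ± 0.323 FPKM in libraries labelled aged and 20.2 ± 0.322 FPKM in those labelled young. Limma adjusted p for these 4 genes ran from 4.02e-06 to 4.05e-05.

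Genes known to respond to TGF-beta in other cells were found in both directions. The counts take no account of the direction in which a gene is known to respond. Of the 41 response genes, 28 were tested, and 14 were higher, 10 lower and 4 without a call, which is 50% higher and 35.7% lower, against 27.7% and 32.3% of all tested genes. As over all tested genes, fewer passed without both libraries with kidney transcripts, which leaves 1 library labelled young. Over its tested genes, the median log2 fold change was 0.14. Fn1, the matrix glycoprotein fibronectin, rose 1.82-fold, at 964, 923 and 993 FPKM in the libraries labelled aged and 522, 529 and 528 FPKM in those labelled young. The libraries labelled young lay close together, and all 3 labelled aged were far above them. Its log2 fold change was 0.87 ± 0.04 (SE, limma adjusted p = 1.17e-05).

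Cdkn1a, the cell cycle inhibitor p21, which is also a p53 target, rose 5.73-fold, at 85.6 ± 1.70 FPKM in libraries labelled aged and 14.9 ± 0.851 FPKM in those labelled young. Vcan, the proteoglycan versican, rose 2.99-fold, at 12.1 ± 0.493 FPKM in libraries labelled aged and 4.03 ± 0.270 FPKM in those labelled young. Col3a1, which encodes type III collagen, fell, with a 3.24-fold difference, at 18.8, 19.3 and 19.7 FPKM in the libraries labelled aged and 60.1, 63.0 and 63.7 FPKM in those labelled young. Tgfbi, a matrix protein named for its induction by TGF-beta and chosen here after its values were seen, was 2.03-fold lower, at 38.9 ± 2.21 FPKM in libraries labelled aged and 78.9 ± 4.23 FPKM in those labelled young. These 4 genes had limma adjusted p of 1.11e-06 to 1.78e-05.

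The 13 response genes that were not tested stayed under 0.5 FPKM in most libraries, and several are known for the contractile myofibroblast state. Over the whole table, 26703 to 26925 genes had a read in libraries labelled aged, against 24074 to 24363 in those labelled young. Acta2, smooth muscle actin, had 6 reads in the libraries labelled aged and 7 in those labelled young. Tagln, the actin-binding protein transgelin, had 11 reads in libraries labelled aged and 3 in those labelled young. Cnn1 had 80 reads in libraries labelled aged and 20 in those labelled young, 12 of them in replicate 1. Not all contractile genes were this low. Tpm1, a tested response gene, averaged 44.5 FPKM in libraries labelled aged and 39.5 FPKM in those labelled young. Des, a muscle marker, had 9.69 to 11.7 FPKM over all libraries. Ctgf, the connective tissue growth factor, had no read in the libraries labelled aged and 13, 3 and 3 reads in replicates 1, 2 and 3 labelled young, so that most of its reads came from replicate 1, which holds kidney transcripts. Without both libraries with kidney transcripts, 3 reads of Ctgf were left. Acta2, Tagln, Cnn1, Tpm1, Des and Ctgf were chosen after their values were seen.

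**Figure D3:**
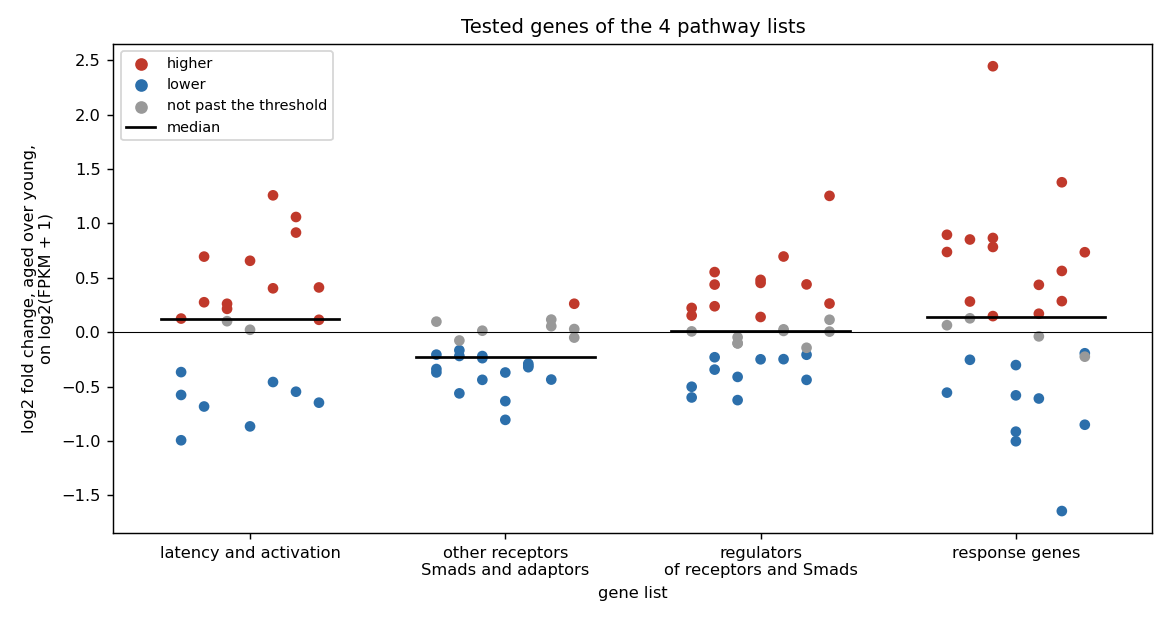
Log2 fold change of the libraries labelled aged over those labelled young on the log2(FPKM + 1) scale (vertical axis) for the tested genes of the 4 lists, with points in red for genes that were higher, in blue for those lower and in grey for those not past the threshold, and the list median as a black line. The medians run from -0.23 for other receptors, Smads and adaptors to 0.14 for response genes, where Cdkn1a stands highest at 2.44. Points are spread sideways only to keep them apart.

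**Figure D4:**
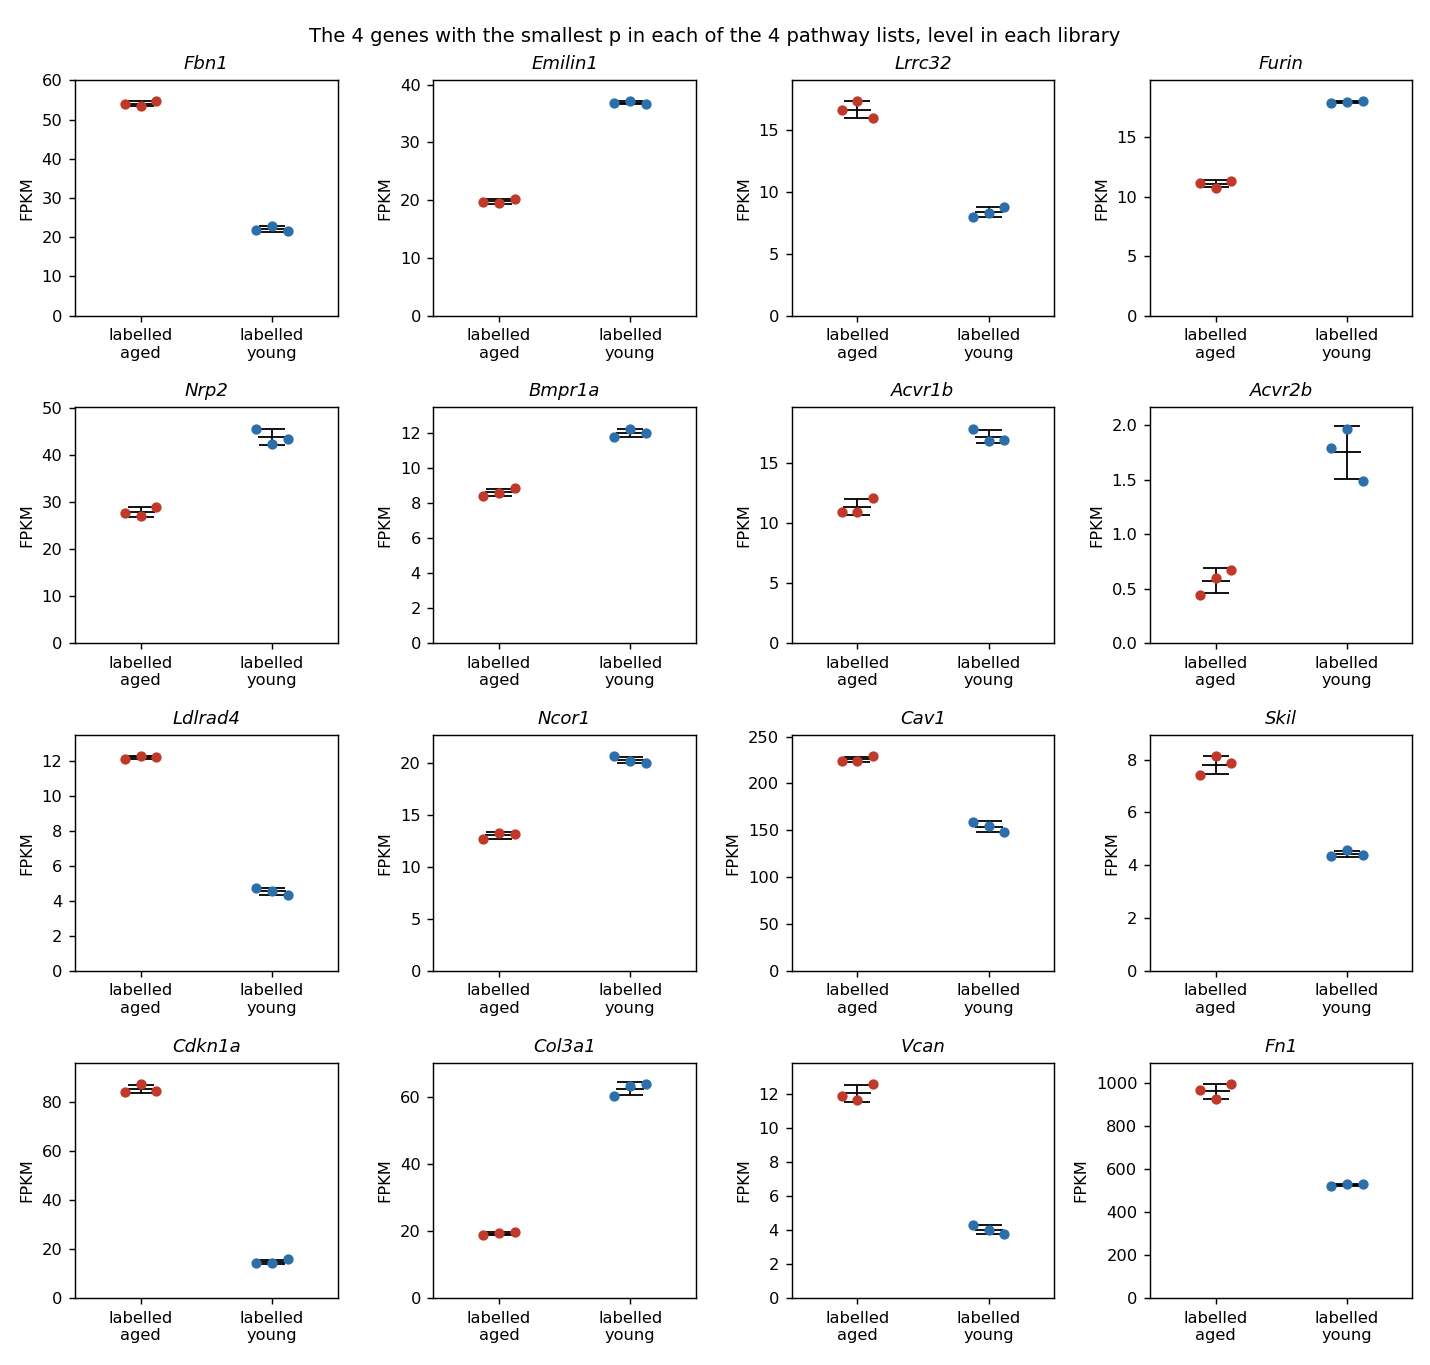
Transcript level in FPKM (vertical axes, each from 0) of the 16 genes named by smallest p, in rows for latency and activation, other receptors, Smads and adaptors, regulators, and response genes, with libraries labelled aged in red on the left, those labelled young in blue on the right, and the mean and SD in black. The groups do not overlap in any of the 16 panels, which largely follows from picking genes by smallest p. Over all tested genes, the groups did not overlap in 66.9%. Fn1 has the widest spread in FPKM, with an SD of 35.3 in libraries labelled aged.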

How the data were processed

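Per the labels' protocols, RNA was extracted with TRIzol and sequenced on an Illumina NovaSeq, and read pairs were aligned with HISAT2 2.0.5 to mm10, per the submitters' processing notes. The sources used here name no read counter, annotation or strand setting. The authors deposited FPKM for 54532 genes in 6 libraries, 1 column each, and all value columns belong to a labelled sample.

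In every library, 100% of values above 0 times gene length were whole multiples of 1 step within 0.01, so reads could be recovered. For a gene 1 kilobase long, the value of 3 reads was 0.173 to 0.177 FPKM. Chi-square over its degrees of freedom was 2.25 to 4.93 between libraries of a group, so no 2 libraries were within sampling noise.

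Values were taken as log2(FPKM + 1). Genes with at least 0.5 FPKM in at least 3 libraries were tested with limma 3.58.1 in R 4.3.3 (linear model on group, mean-variance trend, 2-sided, Benjamini-Hochberg over all 15197 tested genes, threshold 0.05). Log2 fold changes on this scale understate changes of low genes, and folds are ratios of mean FPKM. Lists are described by counts and medians only. The code was tested on simulated reads. Alternatives changed pseudocount, filter, scaling, moderation, replicate block, threshold and libraries, or used voom on recovered reads, and 1, without both libraries with kidney transcripts, was chosen after seeing the data. Members and lists were chosen with earlier results of these data known, and 1 gene of the response list is not reported here or counted in it. Named were all 10 members, the 4 genes with the smallest p in each list among those whose higher group averaged 1 FPKM or more, and 3 genes most like the member with the largest moderated t. Spreadsheet dates had replaced 27 symbols, which were restored by identifier. Other steps used Python 3.11.15, pandas 2.3.3 and matplotlib 3.10.9.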

Additional observations from a re-analysis of the deposited data

How the results depend on the processing

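No member and none of the 16 other genes named by the rule changed direction under the alternatives run. Those 16 also passed the threshold under all of them. They were picked by smallest p in these same libraries, so their passing was largely set by that choice. The count of all genes past the threshold ran from 6234 to 9510 over the alternatives. With a threshold of 0.01, 3 members passed, 1 higher and 2 lower, against 6992 of all tested genes, 3237 higher and 3755 lower. Without both libraries with kidney transcripts, chosen after seeing the data and leaving 1 library labelled young, fewer members and fewer of all tested genes passed. Log2 fold changes in that smaller fit were 0.16 for Tgfb1, -0.19 for Tgfb3, -0.12 for Ltbp1, -0.24 for Tgfbr1 and 0.17 for Smad3. These genes did not pass there. With median centring, 2 members and 4026 of all tested genes were lower, and the log2 fold changes of Tgfb3 (-0.13) and Ltbp1 (-0.068) did not pass. Smad3 did not pass with no filter on low values (0.12), quantile normalization (0.11) or no trend (0.12). Tgfbr2 passed with a mean of at least 1 FPKM (-0.17) and with voom (-0.18). The cause of these shifts was not tested. Leaving out 1 library at a time, 1 to 3 members and 3764 to 4030 of all tested genes were higher. Log2 fold changes then ran from 0.13 to 0.21 for Tgfb1, from -0.23 to -0.12 for Tgfbr2 and from 0.094 to 0.14 for Smad3. In the list of other receptors, Smads and adaptors, the number higher was 3 with median centring, against 4988 of all tested genes. It was 2 with voom, against 4399, and 1 to 2 leaving out 1 library, against 3764 to 4030. The number was 0 without both libraries with kidney transcripts. That fit leaves 1 library labelled young and fewer of all tested genes passed in it, so the 0 cannot be read as particular to this list.

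Replicate numbers shared by the groups did not pair the libraries: deviations of same-numbered libraries from their group means correlated at 0.006, -0.008 and 0.019 across genes, and not every library correlated best with its own number. With the replicate number as a block, 8441 genes passed, against 9115 without it, and Tgfb1 (log2 fold change 0.18) no longer passed (limma adjusted p = 0.0560). For Tgfb2, with 23 reads in the libraries labelled aged and 27 in those labelled young, depth limits what could be seen.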
